A study of Mus musculus with 24 samples.

Results

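The chemokine ligands of the mouse are the subject here: every gene on the array whose symbol is Ccl or Cxcl with a number, plus Cx3cl1 and Xcl1. The rule found 38 ligand genes, on 39 probe sets, among 19505 genes with a symbol. Only Ccl21b among the ligands had a second probe set, and the brighter of the pair on average was kept. Ccl21b and Ccl21c had identical values on all 24 arrays. Both are included in counts over the 38 ligands, and they enter the correlations and plots once, which leaves 37 measurements. Ccl21a, Ccl21b and Ccl21c are near-identical copies, so the signal of each is uncertain.

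Gene expression was measured in 24 mouse tumours with Clariom S arrays, in 4 groups of 6. The combination group received BMS754807 and hydroxychloroquine together. The BMS754807 group received that agent alone, a small-molecule inhibitor of the kinases IGF1R and IR, which receive insulin and insulin-like growth factor signals. The hydroxychloroquine group received that agent alone, a weak base that raises lysosomal pH and blocks the end of autophagy. The control group is labelled as vector treated. By its title the series concerns these interventions in PDAC, pancreatic ductal adenocarcinoma. The labels give no strain, tumour model, dose, duration, tumour site or animal number, and do not say whether the 6 tumours of a group came from separate animals. The p-values therefore measure the spread between these samples.

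Chemokines are small secreted proteins that bind receptors with 7 membrane-spanning segments on leukocytes and other cells and direct their migration along a gradient. Most ligands belong to the CC or CXC family, named for the spacing of conserved cysteines, and several ligands often share a receptor. In pancreatic tumours they are known for recruiting monocytes and neutrophils through CCR2 and CXCR2, and fibroblast-derived CXCL12 is known for its part in keeping T cells out. Several are induced by interferon or by NF-κB, and some are produced constantly in lymphoid tissue or epithelium.

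Levels below are the deposited log2 signals of 1 probe set per gene, and differences are differences of group means on the log2 scale. Levels of different genes are not compared, because probe sets differ in brightness. Array medians lay between 6.79 and 7.03 log2. Some epithelial genes were bright in every tumour (Krt19 between 15.15 and 15.94 log2, Cdh1 between 15.92 and 16.68, Sox9 between 14.65 and 15.58). Others of the same list were not: Cldn4 lay between 4.33 and 10.21 and Cldn7 between 6.81 and 9.4. Of the acinar genes, Ctrb1 lay between 1.84 and 3.08 and Cela1 between 6.65 and 8.63. Marker lists were summarised as a score, the mean over a list's genes of the tumour's log2 value minus the gene's mean over 24 tumours. The skeletal muscle score was above 1 in 6 tumours: control 5, BMS754807 2 and 6, hydroxychloroquine 5, and combination 1 and 4. The B and plasma cell score was above 1 in hydroxychloroquine 1, BMS754807 5 and combination 4. These tumours are named where a ligand result rests on them.

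The ligands varied more between tumours of the same group than most genes did. The median within-group SD was 0.721 log2 over the 38 ligands and 0.327 over all genes, and 37 of 38 ligands lay above that all-gene median. Of the 38, 22 had a mean at or above 7.2 log2, the median gene mean. BMS754807 tumour 6 held the highest value of 11 ligands among the 24 tumours, with Ccl21b and Ccl21c both counted, and control tumour 5 of 6 ligands. Cell type scores were also high in BMS754807 tumour 6: adipocyte 4.70, skeletal muscle 3.78, lymphatic endothelial 1.89, macrophage 1.76, endothelial 1.47 and fibroblast 1.25, with an epithelial and ductal score of -0.84. Control tumour 5 had scores of 4.36 for skeletal muscle, 1.501 for endothelial, 1.41 for macrophage, 1.24 for neutrophil and -0.68 for epithelial and ductal. Their part in these ligand values was not tested. Combination tumours were seldom at the top: combination tumours 1, 2 and 5 each held the highest value of 1 ligand. In bulk tumour RNA, fewer cells of a type and less RNA per cell cannot be told apart.

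**Figure D1:**
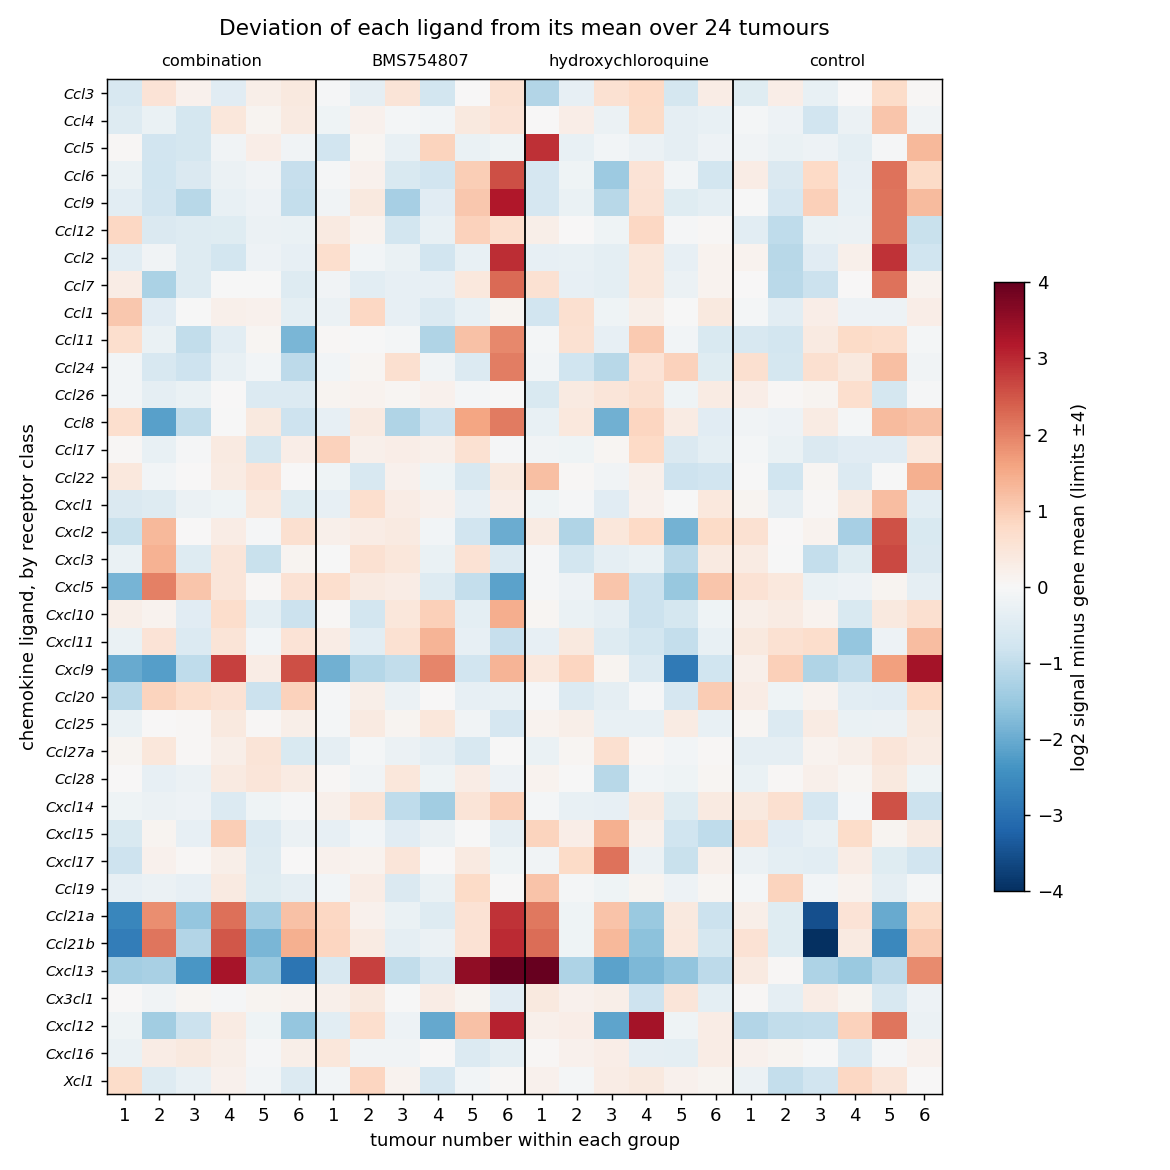
Each row is 1 of 37 ligand measurements and each column 1 of 24 tumours, grouped by treatment (n = 6 per group); the colour gives the log2 signal minus that ligand's mean over the 24 tumours, cut off at plus and minus 4 log2. Ccl21c is not drawn because it equals Ccl21b; BMS754807 tumour 6 and control tumour 5 hold the highest value of 11 and 6 ligands, Ccl21c counted.

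No ligand passed an adjusted p of 0.05 in any of 8 contrasts (limma, Benjamini-Hochberg over 19505 genes), and no gene on the array did. In the combination against control 0 of 38 ligands were called, against 0% of all genes, and 3 ligands had an unadjusted p under 0.05, all lower, against 5.06% of all genes. In BMS754807 against control 0 were called (0% of all genes) and 1 had an unadjusted p under 0.05 (5.88% of all genes). In hydroxychloroquine against control 0 were called (0%) and 0 had an unadjusted p under 0.05 (4.81%). In the combination against BMS754807 0 were called (0%) and 2 had an unadjusted p under 0.05 (8.61%). In the combination against hydroxychloroquine the counts were 0 (0%) and 1 (5.39%). For the mean of the 12 tumours with BMS754807 minus the 12 without, the counts were 0 (0%) and 0 (5.72%). For the mean of the 12 tumours with hydroxychloroquine minus the 12 without, the counts were 0 (0%) and 4, all lower (8.09%). For the interaction, the effect of BMS754807 with hydroxychloroquine minus its effect without, they were 0 (0%) and 1 (5.05%). The ligands' share at an unadjusted p under 0.05 ran from 0% to 10.5%, near the share over all genes in each contrast.

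Directions were mixed. Against the same 6 controls, 16 of 38 ligands lay higher in the combination (51.5% of all genes) and 22 lower (48.4% of all genes), with a median difference of -0.09 log2. In BMS754807 against control 18 lay higher (50.2% of all genes) and 20 lower (49.7%), and in hydroxychloroquine against control 17 lay higher (49.8%) and 21 lower (50.1%). The combination against BMS754807 gave 13 higher (49.3% of all genes) and 25 lower (50.6%), with a median of -0.23 log2, and the combination against hydroxychloroquine 16 higher (51.8%) and 22 lower (48%). The effect of BMS754807 over all 24 tumours was above 0 for 19 ligands (50.6% of all genes) and below 0 for 19 (49.4%). That of hydroxychloroquine was above 0 for 16 (50.3%) and below 0 for 22 (49.7%), and the interaction was above 0 for 17 (50.8%) and below 0 for 21 (49.2%). No ligand separated the groups without overlap in any of the 5 comparisons between 2 groups.

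**Figure D2:**
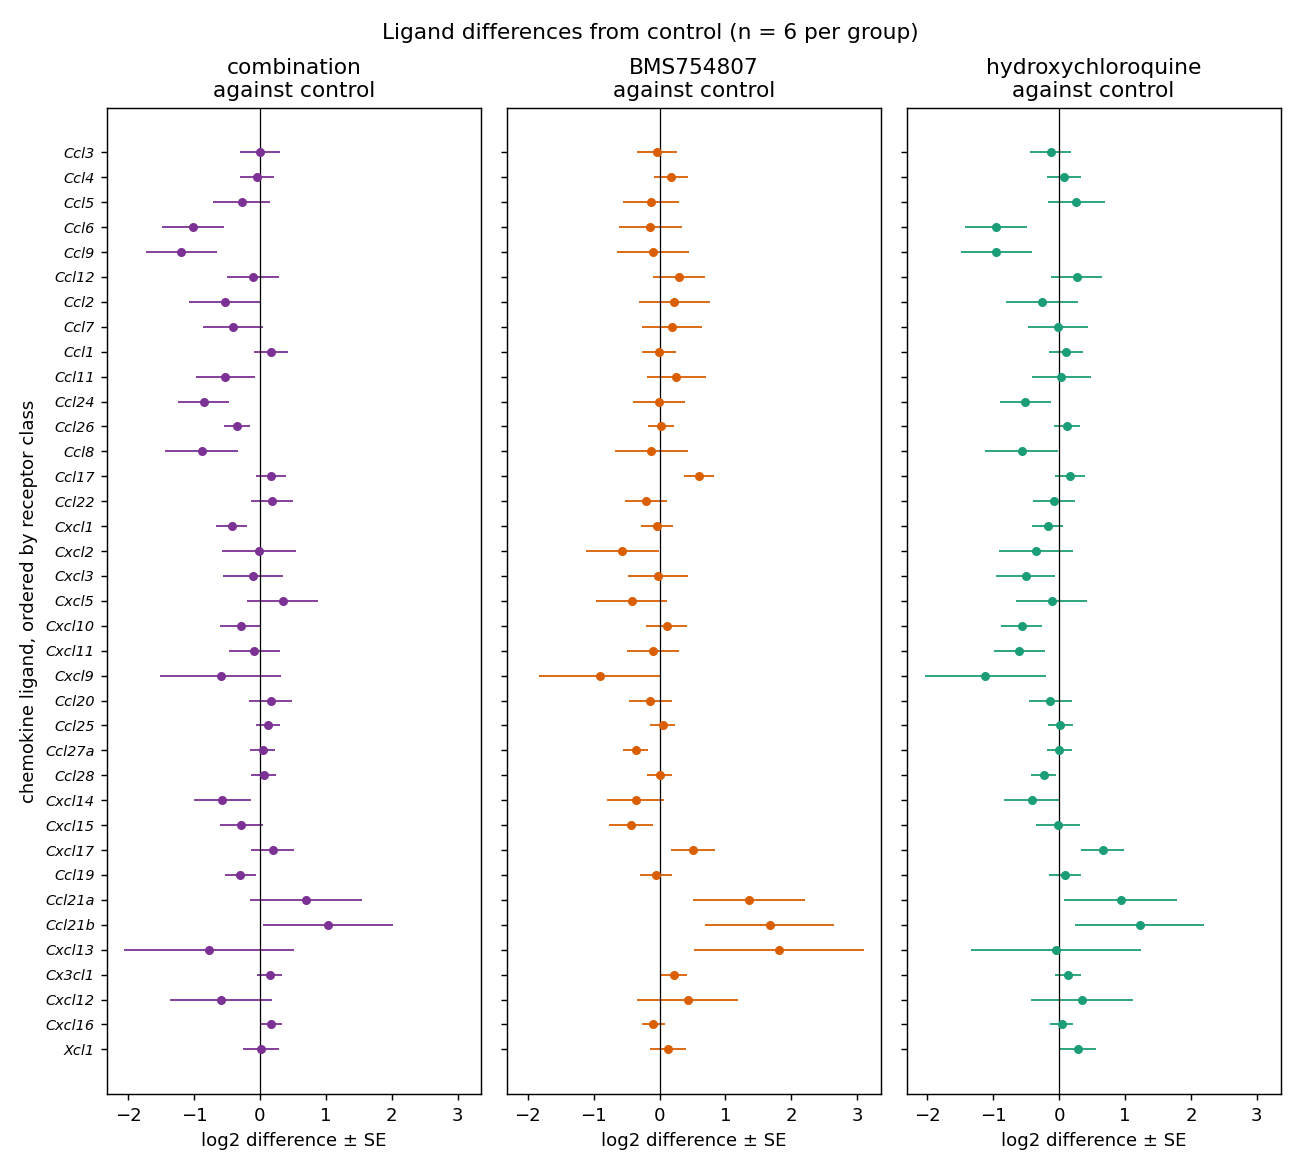
Points give the difference of group means in log2 signal and bars its SE for 37 ligand measurements, ordered by receptor class, in the combination (left), BMS754807 (middle) and hydroxychloroquine (right), each against the same 6 control tumours (n = 6 per group). None passed an adjusted p of 0.05; Ccl6 and Ccl9 lay about 1 log2 unit lower with either hydroxychloroquine treatment, and Ccl17 lay 0.6 higher with BMS754807.

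Ccl6 and Ccl9, ligands of CCR1 that attract macrophages and other myeloid cells in the mouse, had the lowest unadjusted p-values of any ligand for the hydroxychloroquine effect over all 24 tumours. Ccl6 lay at 9.81, 10.31 and 10.59 log2 (lowest, median and highest of 6) in combination tumours, 9.95, 10.8 and 13.29 in BMS754807 tumours, 9.27, 10.3 and 11.26 in hydroxychloroquine tumours, and 10.15, 11.265 and 12.91 in controls. The combination tumours formed a narrow band below the control mean, 5 of 6 hydroxychloroquine tumours lay below it as well, and both groups overlapped the lower controls. The top values came from BMS754807 tumour 6 and control tumour 5. The difference from control was -1.01 ± 0.47 log2 (SE) in the combination (limma unadjusted p = 0.0428, adjusted p = 0.944), -0.14 ± 0.47 with BMS754807 (adjusted p = 0.995) and -0.96 ± 0.47 with hydroxychloroquine (adjusted p = 0.979). Averaged over BMS754807 status, Ccl6 had a lowest, median and highest value of 9.27, 10.31 and 11.26 log2 in the 12 tumours with hydroxychloroquine and 9.95, 10.97 and 13.29 in the 12 without, a difference of -0.92 ± 0.33 (limma unadjusted p = 0.0114, adjusted p = 0.441). Without control tumour 5 the hydroxychloroquine difference from control was -0.63 log2. The effect over all tumours was -0.53 ± 0.24 (adjusted p = 0.606 in limma) without control tumour 5 and BMS754807 tumour 6, and -0.60 ± 0.28 (adjusted p = 0.759) without the 6 muscle-rich tumours.

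Ccl9 followed the same order. It lay at 10.57, 11.095 and 11.47 log2 in combination tumours, 10.36, 11.82 and 14.89 in BMS754807 tumours, 10.58, 11.255 and 12.27 in hydroxychloroquine tumours, and 11.01, 12.16 and 13.82 in controls. All 6 combination tumours lay below the control mean, and BMS754807 tumour 6 was again the highest of all. The differences from control were -1.19 ± 0.54 log2 in the combination (limma adjusted p = 0.944), -0.1 ± 0.54 with BMS754807 (adjusted p = 0.996) and -0.95 ± 0.54 with hydroxychloroquine (adjusted p = 0.979). The hydroxychloroquine effect over all 24 tumours was -1.02 ± 0.38 log2 (limma adjusted p = 0.468). Without the muscle-rich tumours, or without control tumour 5 and BMS754807 tumour 6, it was -0.59, and the difference of hydroxychloroquine from control was -0.62 without the muscle-rich tumours.

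The upstream sequences of Ccl6 and Ccl9 are shown because these ligands had closely matched levels across the 24 tumours. They are the 250 bases before the annotated start, 5′ to 3′ on the gene's strand, from RefSeq (GRCm38.p6), at chr11:83593088-83593337 (minus strand) for Ccl6 and chr11:83578637-83578886 (minus strand) for Ccl9. Capitals mark a match to the κB motif, the DNA element bound by NF-κB.
Ccl6: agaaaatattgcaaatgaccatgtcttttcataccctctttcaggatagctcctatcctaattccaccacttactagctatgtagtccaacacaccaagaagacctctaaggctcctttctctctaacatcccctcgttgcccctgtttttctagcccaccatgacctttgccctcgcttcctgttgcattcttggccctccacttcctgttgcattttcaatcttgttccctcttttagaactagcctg
Ccl9: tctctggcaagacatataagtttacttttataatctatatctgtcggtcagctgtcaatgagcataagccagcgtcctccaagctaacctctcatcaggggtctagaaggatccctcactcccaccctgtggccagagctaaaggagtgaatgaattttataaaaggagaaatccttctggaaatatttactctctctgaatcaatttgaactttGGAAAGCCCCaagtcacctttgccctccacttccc
The best local alignment of their promoters, each taken from 250 bases before to 50 bases after the start, had 58 identical bases in 74 columns (78.4%), from -59 to 15 in Ccl6 and from -18 to 49 in Ccl9. Ccl9 had a κB match on the minus strand at -35 to -26, and Ccl6 had no κB match in this window.

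Ccl3, Ccl4 and Ccl5, which attract monocytes and T cells, had differences from control between -0.27 and 0.26 log2 in all 3 comparisons with control, each smaller than its SE. Ccl5 reached 8.79 log2 in hydroxychloroquine tumour 1, and lay between 5.09 and 7.16 in all other tumours.

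**Figure D3:**
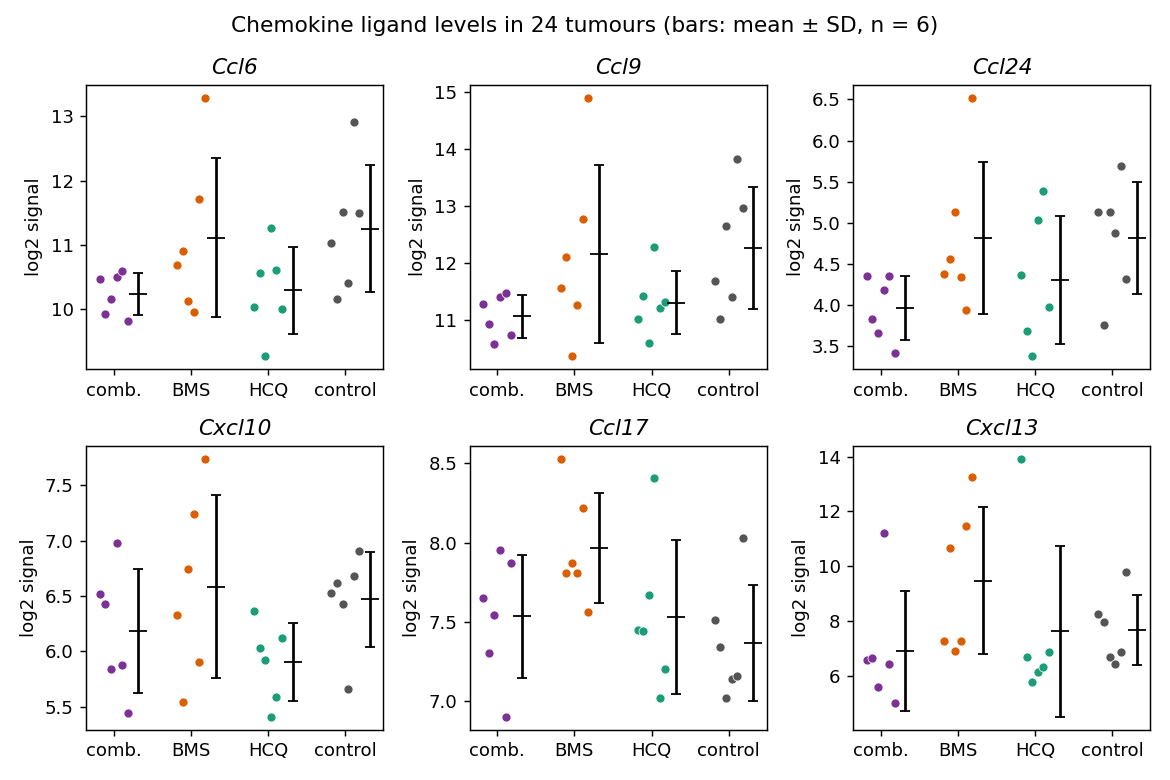
Log2 signal of Ccl6, Ccl9, Ccl24, Cxcl10, Ccl17 and Cxcl13 in each tumour, in the order combination (comb.), BMS754807 (BMS), hydroxychloroquine (HCQ) and control, with the mean and SD of 6 tumours as bars. Combination values of Ccl6 and Ccl9 lie in a band between 9.81 and 11.47, the BMS754807 and control values spread further up, and all groups overlap.

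The CCR2 ligands Ccl2, Ccl7 and Ccl12 recruit inflammatory monocytes. All 3 had lower means in the combination than in controls, by 0.102 to 0.533 log2 (48.4% of all genes lower). With BMS754807 alone all 3 lay higher than control, by 0.182 to 0.29 (50.2% of all genes higher). With hydroxychloroquine alone 1 lay higher and 2 lower. None had an unadjusted p under 0.05 in these comparisons. Ccl2 lay between 7.21 and 7.8 log2 in combination tumours, between 7.16 and 10.89 in BMS754807 tumours, between 7.55 and 8.39 in hydroxychloroquine tumours and between 6.82 and 10.83 in controls. The upper ends came from BMS754807 tumour 6 and control tumour 5, and the same tumours were highest for Ccl7, at 10.15 and 10.06 log2. Ccl12 was highest in control tumour 5, at 11.04 log2, and its medians were 8.515 in combination tumours and 8.55 in controls.

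Among the CCR3 and CCR8 ligands, Ccl24 and Ccl26 are given in full. Ccl24, which attracts eosinophils through CCR3, lay at 3.42, 4.005 and 4.35 log2 in combination tumours, 3.94, 4.47 and 6.52 in BMS754807 tumours, 3.38, 4.17 and 5.39 in hydroxychloroquine tumours, and 3.76, 5.005 and 5.69 in controls. All 6 combination tumours lay below the control mean and below the BMS754807 mean, and the groups overlapped. The differences were -0.85 ± 0.39 log2 against control (limma unadjusted p = 0.0386, adjusted p = 0.944) and -0.85 ± 0.39 against BMS754807 (adjusted p = 0.556), and the hydroxychloroquine effect over 24 tumours was -0.68 ± 0.28 (adjusted p = 0.516). Without BMS754807 tumour 6 the difference between the combination and BMS754807 was -0.51 log2, and without it and control tumour 5 the effect over the remaining tumours was -0.42.

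Ccl26, named for the human CCR3 ligand CCL26, lay at 2.61, 2.845 and 3.18 log2 in combination tumours, 3.08, 3.245 and 3.34 in BMS754807 tumours, 2.53, 3.5 and 3.79 in hydroxychloroquine tumours, and 2.45, 3.23 and 3.82 in controls. These levels are near the bottom of the array's range, which ran from 1.45 to 19 log2. All 6 combination tumours lay below the hydroxychloroquine mean, with a difference of -0.47 ± 0.20 log2 (limma unadjusted p = 0.0268, adjusted p = 0.902). Ccl8, a CCR8 ligand in the mouse, lay lower by 0.882 ± 0.55 log2 in the combination against control, and Ccl11, an eosinophil attractant made by stromal cells, averaged 8.87 log2 in combination tumours, against 9.39 in controls.

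Ccl17, which attracts regulatory and type 2 helper T cells through CCR4, had the smallest p of any ligand in BMS754807 against control. It lay at 6.9, 7.595 and 7.95 log2 in combination tumours, 7.56, 7.84 and 8.53 in BMS754807 tumours, 7.02, 7.445 and 8.41 in hydroxychloroquine tumours, and 7.02, 7.25 and 8.03 in controls. All 6 BMS754807 tumours lay above the control mean, and control tumour 6 lay within their range. The difference was 0.60 ± 0.22 log2 with BMS754807 (limma unadjusted p = 0.0129, adjusted p = 0.822), 0.17 ± 0.22 in the combination (adjusted p = 0.977) and 0.17 ± 0.22 with hydroxychloroquine (adjusted p = 0.991). The combination lay below BMS754807 by 0.432 ± 0.22 log2 (adjusted p = 0.601). Ccl22, the other CCR4 ligand, did not share the pattern: its mean was 8.22 log2 in the combination, 7.84 with BMS754807, 7.97 with hydroxychloroquine and 8.04 in controls.

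The CXCR3 ligands Cxcl9, Cxcl10 and Cxcl11 are induced by interferon and attract activated T cells and natural killer cells. All 3 had a lower mean than control under hydroxychloroquine, by 0.567 to 1.12 log2 (50.1% of all genes lower). All 3 did in the combination, by 0.085 to 0.593 (48.4%), and 2 of 3 with BMS754807 (49.7%). The Cxcl9 differences were -1.12 ± 0.92 log2 with hydroxychloroquine, -0.593 ± 0.92 in the combination and -0.905 ± 0.92 with BMS754807. Cxcl10 lay at 5.44, 6.155 and 6.98 log2 in combination tumours, 5.54, 6.535 and 7.74 in BMS754807 tumours, 5.41, 5.975 and 6.36 in hydroxychloroquine tumours, and 5.66, 6.575 and 6.91 in controls. All 6 hydroxychloroquine tumours lay below the control mean, and control tumour 4, at 5.66, lay among them. The difference was -0.57 ± 0.31 log2 with hydroxychloroquine (limma adjusted p = 0.979), -0.29 ± 0.31 in the combination (adjusted p = 0.963) and 0.11 ± 0.31 with BMS754807 (adjusted p = 0.995). Over all 24 tumours the hydroxychloroquine effect was -0.48 ± 0.22 log2 (unadjusted p = 0.038, adjusted p = 0.581 in limma). Cxcl9 had the widest spread of the class. It lay between 5.07 and 10.03 log2 in combination tumours and between 5.37 and 9.22 in BMS754807 tumours. Its values were between 4.44 and 8.14 in hydroxychloroquine tumours and between 6.07 and 10.6 in controls.

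Interferon-stimulated genes that are no ligands lay lower beside Cxcl10. In hydroxychloroquine against control 17 of 17 measured members of a list of 19 lay lower (50.1% of all genes), 5 with an unadjusted p under 0.05 and 0 called (4.81% of all genes at an unadjusted p under 0.05), with a median difference of -0.54 log2, in the combination 15 of 17 lay lower (48.4% of all genes), 5 with an unadjusted p under 0.05, with a median of -0.45, and in BMS754807 against control 13 of 17 lay lower (49.7%), with a median of -0.18. The list's summed signal ran from 11.23 to 12.08 log2 in combination tumours, 11.61 to 13.16 in BMS754807 tumours, 11.16 to 12.22 in hydroxychloroquine tumours and 11.87 to 12.63 in controls. Irf7, a transcription factor of the interferon response, lay lower with hydroxychloroquine by 1.02 ± 0.36 log2 (limma adjusted p = 0.979). The part of the list in the Cxcl10 difference was not tested.

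The sequence upstream of Cxcl10 is shown because it holds both an interferon-response and a κB motif. It lies at chr5:92348890-92349139 (minus strand, RefSeq, GRCm38.p6), printed as for Ccl6, with capitals for an ISRE match (the interferon-stimulated response element, searched as GAAA, any 2 bases and GAAA again) and for κB matches.
Cxcl10: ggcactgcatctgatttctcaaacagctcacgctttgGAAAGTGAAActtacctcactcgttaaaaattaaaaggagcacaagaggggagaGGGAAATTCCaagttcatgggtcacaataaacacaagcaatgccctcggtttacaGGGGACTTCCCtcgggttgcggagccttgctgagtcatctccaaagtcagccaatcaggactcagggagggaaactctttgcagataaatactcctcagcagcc
The ISRE match lies at -213 to -204, and κB matches lie at -159 to -150 and, overlapping each other, at -104 to -94. RefSeq promoters were at hand for 26 of the 38 ligand genes, 29 promoters in all. On either strand, the κB motif was found in 8 of 29 (27.6%), against 8.46% of all 32851 promoters of the same length, the ISRE in 3 of 29 (10.3%) against 3.44%, and TATAAA in 9 of 29 (31.0%) against 13.6%. A match describes these letters only.

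The CXCR2 ligands Cxcl1, Cxcl2, Cxcl3 and Cxcl5 attract neutrophils. Their means were lower than control in 4 of 4 with BMS754807 (49.7% of all genes lower) and 4 of 4 with hydroxychloroquine (50.1%), and in 3 of 4 in the combination (48.4%), none with an unadjusted p under 0.05. With BMS754807 the differences were -0.04 ± 0.24 log2 for Cxcl1, -0.02 ± 0.45 for Cxcl3 and -0.42 ± 0.54 for Cxcl5. Control tumour 5 held the highest value of Cxcl1, Cxcl2 and Cxcl3, so these directions are not separate observations. Cxcl1, between 2.33 and 4.14 log2, was near the bottom of the array's range. Cxcl2 lay at 5.74, 6.8 and 7.93 log2 in combination tumours, 4.66, 6.69 and 7 in BMS754807 tumours, 4.76, 7.025 and 7.45 in hydroxychloroquine tumours, and 5.32, 6.71 and 9.19 in controls. The medians were close, the groups overlapped, and the extremes were BMS754807 tumour 6 and control tumour 5. The BMS754807 difference of -0.56 ± 0.56 log2 (limma adjusted p = 0.974) rested on them: it was -0.10 without control tumour 5, -0.87 without control tumour 4, and 0.23 without both control tumour 5 and BMS754807 tumour 6, a set chosen after seeing the data.

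The upstream sequences of Cxcl2 and Cxcl3 are shown as another pair with matched levels, at chr5:90903649-90903898 and chr5:90785851-90786100 (plus strand, RefSeq, GRCm38.p6), with κB matches in capitals.
Cxcl2: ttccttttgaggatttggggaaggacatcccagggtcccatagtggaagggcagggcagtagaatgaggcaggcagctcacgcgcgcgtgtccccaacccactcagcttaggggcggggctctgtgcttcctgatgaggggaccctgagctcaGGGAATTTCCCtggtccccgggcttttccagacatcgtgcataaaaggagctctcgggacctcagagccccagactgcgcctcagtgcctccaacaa
Cxcl3: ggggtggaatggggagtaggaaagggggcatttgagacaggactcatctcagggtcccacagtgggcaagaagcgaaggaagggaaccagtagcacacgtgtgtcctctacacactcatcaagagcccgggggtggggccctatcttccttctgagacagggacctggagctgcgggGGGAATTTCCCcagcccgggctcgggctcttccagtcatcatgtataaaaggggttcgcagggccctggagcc
The κB matches lie at -97 to -87 in Cxcl2 and at -73 to -63 in Cxcl3, each read on both strands with 1 base of offset. Their local alignment, again from 250 bases before to 50 after the start, held 189 identical bases in 282 columns (67.0%).

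Among ligands of lymphoid tissue, which position lymphocytes and dendritic cells, Cxcl13 and Ccl21b had the widest within-group spread of the 37 measurements, with SDs of 2.42 and 1.84 log2, and Ccl19 had a narrow one, at 0.44. Ccl21b and Ccl21c, CCR7 ligands of lymphatic vessels and T cell zones, lay at 6.72, 9.61 and 11.97 log2 in combination tumours, 9.12, 9.93 and 12.48 in BMS754807 tumours, 7.83, 9.62 and 11.71 in hydroxychloroquine tumours, and 4.7, 9.43 and 10.49 in controls. The medians of the 4 groups were within 1 log2 unit, control tumour 3 was the lowest of all, at 4.7, and BMS754807 tumour 6 the highest, at 12.48. The differences from control were 1.03 ± 0.98 log2 in the combination, 1.67 ± 0.98 with BMS754807 and 1.22 ± 0.98 with hydroxychloroquine (limma adjusted p = 0.956, 0.924 and 0.983). Without control tumour 3 they were 0.27, 0.91 and 0.46 log2, without the muscle-rich tumours 0.80, 0.87 and 0.86, and without combination tumour 1 the combination difference was 1.59. Without the 3 tumours rich in B cell markers the combination difference was 0.54.

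Cxcl13, the CXCR5 ligand that attracts B cells into follicles, lay at 5, 6.49 and 11.2 log2 in combination tumours, 6.92, 8.965 and 13.27 in BMS754807 tumours, 5.77, 6.505 and 13.93 in hydroxychloroquine tumours, and 6.43, 7.415 and 9.79 in controls. The 5 highest tumours were combination tumour 4, BMS754807 tumours 2, 5 and 6, and hydroxychloroquine tumour 1, and the groups overlapped. The differences from control were -0.77 ± 1.29 log2 in the combination, 1.81 ± 1.29 with BMS754807 and -0.05 ± 1.29 with hydroxychloroquine (limma adjusted p = 0.989, 0.948 and 1). Of those 5 tumours, combination 4, BMS754807 5 and hydroxychloroquine 1 were also the 3 with B and plasma cell scores above 1, at 1.90, 2.33 and 3.55. BMS754807 tumours 2 and 6 had scores of -0.44 and -0.45. Ccl19, the other CCR7 ligand, was near the bottom of the array's range, between 2.61 and 4.35 log2, and was also highest in hydroxychloroquine tumour 1.

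Of the 7 epithelial and mucosal ligands, Ccl20, Ccl25, Ccl28 and Cxcl14 had no unadjusted p under 0.05, and Ccl27a, Cxcl15 and Cxcl17 are given in full. Ccl27a, a CCR10 ligand of skin epithelium, lay at 6.94, 7.73 and 8.07 log2 in combination tumours, 6.92, 7.27 and 7.56 in BMS754807 tumours, 7.29, 7.615 and 8.22 in hydroxychloroquine tumours, and 7.19, 7.755 and 8.05 in controls. All 6 BMS754807 tumours lay below the control mean and 5 of 6 combination tumours above the BMS754807 mean, with overlap in both cases. The combination lay above BMS754807 by 0.40 ± 0.19 log2 (limma unadjusted p = 0.0453, adjusted p = 0.567), and BMS754807 differed from control by -0.36 ± 0.19 (adjusted p = 0.876).

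Cxcl17, a mucosal chemokine that attracts myeloid cells, lay at 2.81, 3.66 and 3.88 log2 in combination tumours, 3.45, 3.79 and 4.12 in BMS754807 tumours, 2.76, 3.67 and 5.82 in hydroxychloroquine tumours, and 2.88, 3.22 and 3.93 in controls. Its mean over 24 tumours, 3.64 log2, and that of Cxcl15, 3.61, were near the bottom of the array's range. Each agent alone had a higher mean Cxcl17 than control and the combination did not add to it, with overlap throughout. The interaction for Cxcl17 was -0.97 ± 0.47 log2 (limma unadjusted p = 0.0493, adjusted p = 0.951), and the hydroxychloroquine difference was 0.66 ± 0.33 (adjusted p = 0.979). Hydroxychloroquine tumour 3, at 5.82, decided both: without it the interaction was -0.60 and the hydroxychloroquine difference 0.28 log2. Cxcl15, known from lung epithelium, lay at 3.01, 3.335 and 4.59 log2 in combination tumours, 3.17, 3.335 and 3.59 in BMS754807 tumours, 2.59, 3.845 and 5.04 in hydroxychloroquine tumours, and 3.16, 3.85 and 4.34 in controls. All 6 BMS754807 tumours lay below the control mean (-0.43 ± 0.33 log2, limma adjusted p = 0.951), within the control range.

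Cxcl16, a membrane-bound CXCR6 ligand, varied little: it lay at 13.21, 13.7 and 13.86 log2 in combination tumours, 12.91, 13.33 and 13.92 in BMS754807 tumours, 13.07, 13.58 and 13.76 in hydroxychloroquine tumours, and 12.92, 13.505 and 13.64 in controls. The groups overlapped almost fully. The combination difference from control was 0.17 ± 0.17 log2 (limma adjusted p = 0.959), and 0.07 without control tumour 4. Cxcl12, the CXCR4 ligand of stromal cells, averaged 8.78 ± 0.76 log2 in combination tumours, 9.80 ± 1.72 in BMS754807 tumours, 9.72 ± 1.75 in hydroxychloroquine tumours and 9.37 ± 1.32 in controls (SD, n = 6 each). Cx3cl1 lay between 9.62 and 10.92 log2 in all 24 tumours and Xcl1 between 2.99 and 4.81, with no unadjusted p under 0.05 for either.

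Receptors gave no call either. Of 18 listed receptors 17 were measured, and in the combination against control 4 lay higher (51.5% of all genes) and 13 lower (48.4%), 3 of them with an unadjusted p under 0.05 (5.06%) and 0 called (0%). In BMS754807 against control 7 lay higher (50.2% of all genes) and 10 lower (49.7%). With hydroxychloroquine 11 lay higher (49.8%) and 6 lower (50.1%). Ccr2, the receptor of the monocyte attractants, lay at 7.3, 8.035 and 8.84 log2 in combination tumours and 8.18, 8.975 and 9.91 in controls (difference -1.05 ± 0.42, limma adjusted p = 0.944). Cx3cr1, found on monocytes and macrophages, lay at 5.06, 5.85 and 6.49 log2 and 6.2, 6.5 and 7.22 in the same groups (-0.84 ± 0.26, unadjusted p = 0.00386, adjusted p = 0.873). Ccr1, which binds Ccl6 and Ccl9, lay at 6.49, 6.965 and 7.26 log2 and 6.92, 7.33 and 8.91 (-0.61 ± 0.26, adjusted p = 0.944). Its top value, 8.91, came from control tumour 5. With hydroxychloroquine alone, where Ccl6 and Ccl9 had lower means, Ccr1 averaged 7.44 log2, against 7.54 in controls and 7.47 with BMS754807. Ccr2 and Cx3cr1 also had lower means than control with each agent alone. Ccr2 averaged 8.482 log2 with BMS754807 and 8.288 with hydroxychloroquine, against 9.052 in controls. Cx3cr1 averaged 6.073 log2 with BMS754807 and 6.465 with hydroxychloroquine, against 6.605 in controls. For these 3 receptors all 6 combination tumours lay below the control mean, and the groups overlapped.

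For the other receptors of the ligands given in full, no unadjusted p was under 0.05 in a comparison with control. In the combination the limma differences from control were 0.03 ± 0.22 log2 for Ccr3, -0.19 ± 0.15 for Ccr4, -0.26 ± 0.16 for Ccr7, -0.23 ± 0.23 for Ccr10, -0.06 ± 0.29 for Cxcr2, -0.02 ± 0.17 for Cxcr3, 0.02 ± 0.40 for Cxcr5 and 0.13 ± 0.27 for Cxcr6. In BMS754807 against control the unadjusted p was under 0.05 for Xcr1, the Xcl1 receptor of cross-presenting dendritic cells (-0.53 ± 0.22 log2), and for the scavenging receptor Ackr1 of venules (0.57 ± 0.25), each with a limma adjusted p of 0.839. The platelet chemokines Pf4 and Ppbp, which fall outside the naming rule, had differences from control between -0.65 and -0.33 log2, and none had an unadjusted p under 0.05.

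Of the listed inducers of the NF-κB pathway 13 of 14 were measured, and 0 were called in any of the 3 comparisons with control, against 0% of all genes. With BMS754807 the unadjusted p was under 0.05 for Ifngr1, a chain of the interferon gamma receptor (-0.33 ± 0.13 log2), for Irf9, which carries the type I interferon signal to DNA (-0.31 ± 0.14), and for Il6, an inflammatory cytokine (-0.77 ± 0.34). Their limma adjusted p-values were 0.827, 0.839 and 0.839.

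Ligands were then set against the receptors they bind and against ligands of the same receptor or gene cluster, over all 24 tumours. Of 40 measured pairs, 13 passed a Benjamini-Hochberg adjusted permutation p of 0.05 over the 40 (100000 permutations, two-sided), 7 of 16 pairs of ligands and 6 of 24 pairs with a receptor. The share of all 666 ligand pairs that would pass was not computed, so the 13 have no background share beside them. On residuals from the 4 group means, pairs outside the 40 also correlated closely. There r was 0.76 for Ccl2 and Cxcl14 and 0.74 for Cxcl5 and Cxcl16, while the median over all 666 was 0.06. Labels and files name no batch, so values on residuals from the 4 group means are given as the within-group check. Ccl6 and Ccl9 were the closest pair, with Pearson r = 0.96 and Spearman rho = 0.9, each with a permutation p of 1e-05, the smallest these permutations can give, and an adjusted p of 0.0004. Without the 2 tumours farthest from the median of Ccl6 r was 0.91, and within groups it was 0.95.

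Ccl2, Ccl7, Ccl8 and Ccl12, whose genes lie in the same cluster, gave 5 called pairs. The pair of Ccl2 and Ccl8 was not among the 40, and its within-group r was 0.41. Ccl11, from the same cluster, was paired only with Ccr3. Close relations were not particular to the cluster: within groups r was 0.80 for Ccl6 and Cxcl12 and 0.77 for Ccl12 and Cxcl14. Ccl7 and Ccl12 had r = 0.76 and rho = 0.66 (permutation p = 9e-05 and 0.00045, adjusted p = 0.0012 and 0.009), r = 0.62 without the 2 farthest tumours and 0.76 within groups. Ccl2 and Ccl7 had r = 0.83 but rho = 0.46 (permutation p = 0.0003 and 0.0231, adjusted p = 0.00171 and 0.0746). That relation rested on BMS754807 tumour 6 and control tumour 5, the 2 farthest from the Ccl2 median, without which r was 0.33. Cxcl2 and Cxcl3 had r = 0.74 and rho = 0.62 (permutation p = 6e-05 and 0.00126, adjusted p = 0.0012 and 0.0126), with r = 0.6 without the 2 farthest tumours and 0.77 within groups.

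Among pairs with a receptor, Cxcl12 and Cxcr4 had r = 0.67 and rho = 0.55 (permutation p = 0.00038 and 0.00592, adjusted p = 0.0019 and 0.0304), 0.67 without the 2 farthest tumours and 0.65 within groups. Ccl6 and Ccr1 had r = 0.74 and rho = 0.55 (permutation p = 0.00017 and 0.00685, adjusted p = 0.00147 and 0.0304) and 0.46 without the 2 farthest tumours. Cxcl13 and Cxcr5 had r = 0.75 and rho = 0.53 (permutation p = 0.00022 and 0.0088, adjusted p = 0.00147 and 0.0352), but r was 0.4 (adjusted p = 0.155) without the 3 tumours rich in B cell markers. The CXCR3 ligands showed no such relation to their receptor, with r = -0.25 for Cxcl9, 0.13 for Cxcl10 and -0.04 for Cxcl11. Without the 6 tumours rich in muscle markers 5 of 40 pairs passed, 4 of them among the 13: Ccl6 and Ccl9, Ccl7 and Ccl12, Cxcl13 and Cxcr5, and Cxcl12 and Cxcr4.

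**Figure D4:**
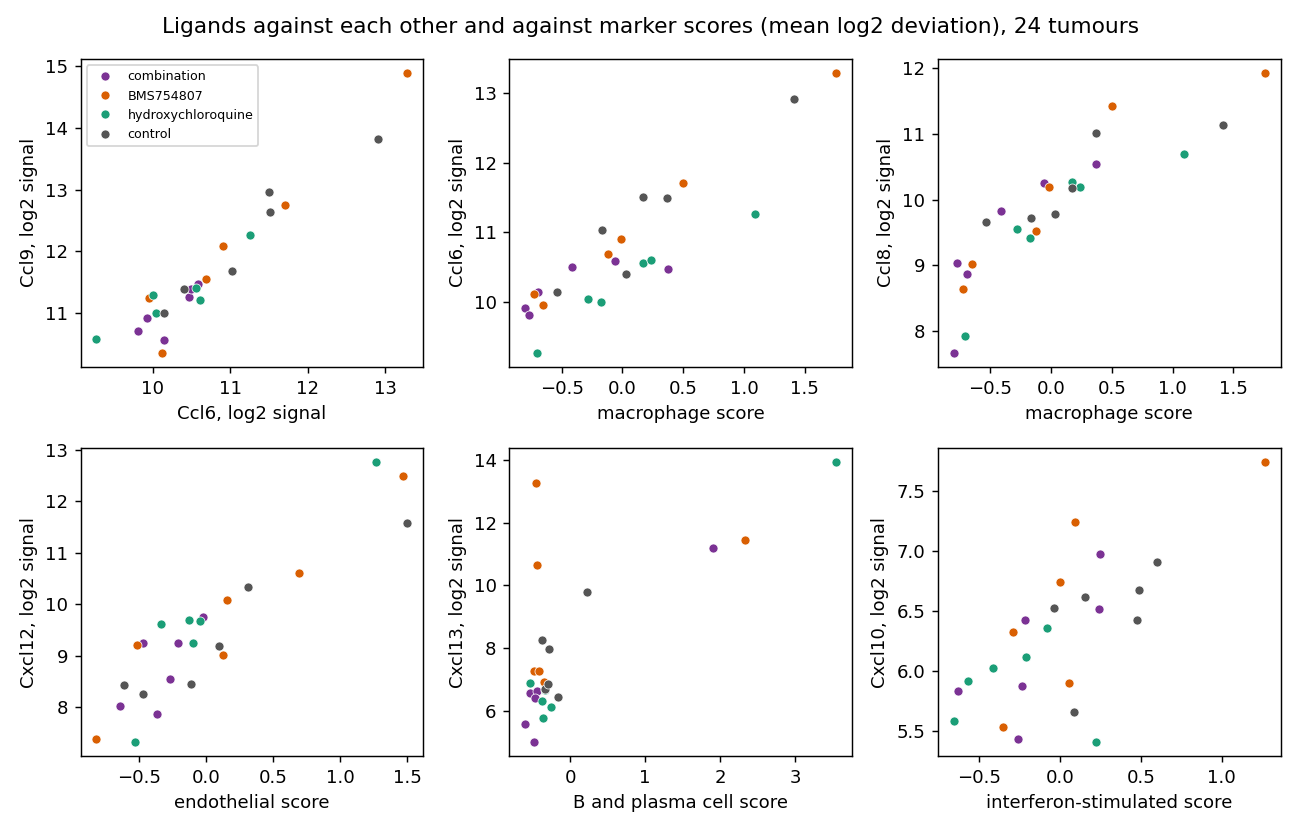
Each point is 1 of 24 tumours, coloured by treatment group; axes give log2 signal or a marker score (mean log2 deviation over the list's genes). Pearson r over 24 tumours was 0.96 for Ccl6 and Ccl9, 0.9 and 0.88 for the macrophage score with Ccl6 and Ccl8, 0.91 for the endothelial score with Cxcl12 and 0.7 for the interferon-stimulated score with Cxcl10; in the Cxcl13 panel 3 tumours lie apart at B and plasma cell scores above 1.

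Each ligand was also set against 14 lists of cell type and state markers, a comparison added after seeing the data. Of 518 relations, 79 passed an adjusted permutation p of 0.05 (Benjamini-Hochberg over the 518), 85 did so within groups and 76 did so both ways. At least 1 list passed for 24 of 37 ligand measurements. The macrophage list, with complement C1q, Csf1r and Mrc1 among its genes, had the closest relation to Ccl6 (r = 0.9, rho = 0.85), Ccl9 (r = 0.89, rho = 0.83) and Ccl8 (r = 0.88, rho = 0.94), each with permutation p-values of 1e-05, the smallest possible, and adjusted p = 0.000518 for r. Without the 2 tumours farthest from the median macrophage score these were 0.78, 0.76 and 0.86, and within groups 0.95, 0.92 and 0.88.

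Marker lists also lay beside the Ccl6, Ccl9 and Ccl24 differences. In the combination against control 8 of 8 endothelial genes lay lower (median -0.48 log2), 9 of 9 dendritic cell genes (-0.35) and 7 of 9 T cell genes (-0.32), against 48.4% of all genes. Of 10 epithelial and ductal genes 8 lay higher (0.18), against 51.5%, and 0 genes of these lists were called (0% of all genes). Lymphatic endothelial and adipocyte genes also lay mostly lower: the higher and lower counts were 1 and 5 for lymphatic endothelial and 1 and 6 for adipocyte genes. They were 3 and 6 for neutrophil and for fibroblast, 4 and 5 for NK and cytotoxic, and 3 and 4 for pancreatic acinar genes. B and plasma cell genes gave 6 and 3, and skeletal muscle genes 9 and 1. In the same comparison 11 of 11 measured macrophage genes lay lower (48.4% of all genes), 2 with an unadjusted p under 0.05 and 0 called, with a median of -0.55 log2. With hydroxychloroquine 4 lay higher and 7 lower, with a median of -0.07. The member with an unadjusted p under 0.05 was Cd163, a scavenger receptor of macrophages, at -1.25 ± 0.54 log2 (limma unadjusted p = 0.0301, adjusted p = 0.979), while Adgre1 and Csf1r, 2 of the 4 that lay higher, differed by 0.20 ± 0.45 and 0.05 ± 0.46 log2 (limma adjusted p = 0.991 and 0.999). Over all 24 tumours the hydroxychloroquine effect was below 0 for 11 of 11 macrophage genes (49.7% of all genes), with a median of -0.23 log2. The summed macrophage signal ran from 14.48 to 15.52 log2 in combination tumours, 14.55 to 17.03 in BMS754807 tumours, 14.61 to 16.6 in hydroxychloroquine tumours and 14.81 to 16.59 in controls, and no macrophage gene was below 4.49 log2 in any tumour. The part of these lists in the ligand differences was not tested.

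Other ligands followed other lists. Cxcl12 was closest to the endothelial list (r = 0.91 and rho = 0.83, permutation p = 1e-05 for both, adjusted p = 0.000518 for r; 0.88 without the 2 farthest tumours and 0.92 within groups). Cxcl16 was closest to the epithelial and ductal list (r = 0.8 and rho = 0.73, permutation p = 2e-05 and 0.0001, adjusted p = 0.00074 and 0.0037; 0.73 and 0.8 likewise), and Cxcl5 ran against the macrophage list (r = -0.69 and rho = -0.75, permutation p = 0.00016 and 6e-05, adjusted p = 0.00267 and 0.00259; -0.7 and -0.68). Ccl21a followed the lymphatic endothelial list, from which it was left out, with r = 0.69 and rho = 0.69 (permutation p = 0.00011 and 0.00019, adjusted p = 0.00203 and 0.00544; 0.65 and 0.71). Cxcl10 was closest to the interferon-stimulated list, with r = 0.7 and rho = 0.65 (permutation p = 0.00021 and 0.00063, adjusted p = 0.0032 and 0.0136; 0.52 and 0.63), and r was 0.4 without the muscle-rich tumours.

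Some relations rested on a few tumours. For Cxcl13 and Ccl19 the B and plasma cell score split the tumours into 3 high and 21 low, and within the 21 r was 0.22 for both. Ccl2 was closest to the neutrophil list (r = 0.81, rho = 0.55, permutation p = 4e-05 and 0.00601, adjusted p = 0.000987 and 0.061), with r = 0.49 without the 2 tumours farthest from the median neutrophil score. Ccl5 and the T cell score were both highest in hydroxychloroquine tumour 1, whose score of 2.18 stood apart from the others, all at 0.73 or below. Without the 2 tumours farthest from the median T cell score r was 0.53. Ccl17, the ligand with the smallest p for BMS754807 against control, had no list that passed; the closest was NK and cytotoxic, with r = 0.38 and rho = 0.26 (permutation p = 0.065 and 0.229, adjusted p = 0.211 and 0.539), r = 0.3 without the 2 farthest tumours and 0.23 within groups.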

How the data were processed

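Total RNA of 24 mouse tumours was measured on Clariom S arrays. The authors deposited a table of 22206 probe sets by 24 arrays with no missing value, taken here as log2 signal because it ran from 1.45 to 19; the log base, background correction and normalization are not given in the sources used here. Per the submitters' processing notes, Transcriptome Analysis Console 4.0 was used. Arrays hold no counts, so the number of arrays limits the precision.

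Symbols came from the platform annotation (19572 probe sets with 1 symbol, 0 with several, 2634 with none), and the probe set with the highest mean was kept for each of 19505 genes. A means model of the 4 groups was fitted to all genes with limma 3.58.1 in R 4.3.3 (lmFit, eBayes, two-sided, Benjamini-Hochberg over 19505 genes, threshold 0.05), and 8 contrasts were read from it. The comparisons with control share the same 6 tumours. Groups and tumour numbers came from the titles. Correlations used 100000 permutations (numpy 2.4.6 in Python 3.11.15). Given in full are, per comparison with control, the 3 ligands of smallest p in each direction, and every ligand with an unadjusted p under 0.05 in any contrast; Ccl21c, equal to Ccl21b, is named with it. Receptors and inducers with an unadjusted p under 0.05 against control, and receptors of the ligands given in full, are named too; other ligands and genes are named for their range, or after their values were seen. Promoters came from RefSeq tables, and local alignments from biopython 1.88. The model was tested on simulated data. Members and lists were chosen with earlier results of these data known.

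Alternatives were quantile normalization, array weights, trend and robust moderation, fits of 2 groups only, all probe sets, a filter on level, the replicate number as a block, and leaving out single tumours or tumours rich in muscle or B cell markers. Some items are not reported here. A set without control tumour 5 and BMS754807 tumour 6 was chosen after seeing the data.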

Additional observations from a re-analysis of the deposited data

Results flagged for a closer look

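Of 52 groups of 6 tested among the ligands given in full, with Ccl21b and Ccl21c counted separately although their values are the same, 3 had a tumour far from the others, with a gap to the nearest value, as a share of the group's range, above Dixon's 95% critical value. Chance flags about 1 in 20 groups in such a test. Ccl21b and Ccl21c, which are 1 measurement and so 1 independent result among the 3, stood at 12.48 log2 in BMS754807 tumour 6, with the next BMS754807 tumour at 10.35 (gap 0.634 of the range). Cxcl16 stood at 12.92 log2 in control tumour 4, below the other controls, of which the nearest was at 13.42 (gap 0.694 of the range).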

How the results depend on the processing

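The count of called ligands was 0 in each of the 8 contrasts under every setting run, 34 settings for each comparison of 2 groups and 33 for the other contrasts. Of the alternative values of the fully described ligands 867 kept their direction and their side of the threshold and 2 reversed: Cxcl2 in BMS754807 against control was 0.157 log2 without the tumours rich in muscle markers and 0.23 without control tumour 5 and BMS754807 tumour 6. Over all genes, BMS754807 against control had 0 to 1 called genes when single tumours were left out, and so had the combination against BMS754807. Hydroxychloroquine against control had 0 to 1 likewise, 1 with the replicate block and 1 without control tumour 5 and BMS754807 tumour 6. The hydroxychloroquine effect over 24 tumours had 0 to 2 when single tumours were left out, 1 with the replicate block, 5 with trend and robust moderation and 6 among genes at or above the median level; fewer genes are tested in the last. For the correlated pairs the count of 13 became 5 without the tumours rich in muscle markers and lay between 9 and 14 otherwise, 14 with the replicate block. The cause was not tested. Deviations of same-numbered tumours correlated between -0.251 and 0.305 (median -0.00753 over 36 pairs), against a median of 0.0042 for tumours of different number and group. These values showed no pairing by replicate number but cannot exclude one, and the labels do not settle it. The block changed no ligand call. Precision is limited by 6 tumours a group: the SE of a difference reached 1.29 log2 for Cxcl13, against 0.17 for Cxcl16.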

Other observations

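Across the 666 pairs among 37 ligand measurements the median Pearson r of residuals from the 4 group means was 0.06, given as a description. The platelet chemokine Ppbp, which is no member by its symbol, lay between 4.96 and 6.73 log2 in combination tumours, 4.64 and 5.94 in BMS754807 tumours, 4.51 and 6.41 in hydroxychloroquine tumours and 4.52 and 8.96 in controls, with the top value in control tumour 5.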
